A study of Mus musculus with 119 samples.

Results

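The comparison described here is between 2 sort gates of muscle stem cells from young wild-type (WT) mice, cells with little CD34 on their surface (CD34Lo) and cells with much of it (CD34Hi). Its members are the 8 young libraries of the first of 13 experiments in the series, 4 of each gate, taken by their sample labels out of 119 samples listed. The series asks how FoxO transcription factors keep muscle stem cells quiescent until geriatric age. All 8 libraries came from uninjured skeletal muscle of untreated WT mice, with no transgene, deletion or drug named for either gate, and the labels call the mice young without a number of months. By the series' design text, cells lacking the leukocyte antigen CD45, the endothelial antigen CD31 and Sca-1 and bearing α7-integrin and CD34 were sorted. RNA was taken without culture and its cDNA amplified from a very small input. Set beside them are the 8 geriatric WT libraries of the same experiment and the young WT libraries of experiment 2 (4 CD34Hi and 4 CD34Lo) and experiment 3 (3 CD34Hi and 2 CD34Lo), all untreated. Nothing in the labels ties a library to its own animal. The spread that the p-values rest on is therefore that of these libraries, which may be technical in part.

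Satellite cells, the stem cells of skeletal muscle, rest between the muscle fibre and its basal lamina and are marked by the transcription factor Pax7. On the way to new muscle they pass through a stage with Myf5 and Myod1, commit when Myog (myogenin) is switched on, leave the cell cycle, fuse through membrane proteins such as myomaker, and then fill with sarcomeric actins and myosins. CD34 is a surface sialomucin that quiescent satellite cells of the mouse carry, and signals such as Notch and receptors that raise cyclic AMP are known to hold them at rest.

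Total counts were 6.27 M to 13.29 M in the CD34Hi libraries and 10.45 M to 16.11 M in the CD34Lo libraries (M, mega), with 13055 to 14009 and 14014 to 14376 genes detected. The CD34Lo libraries were thus the deeper ones on the whole. Levels are given as CPM, counts relative to the scaled total of the library in M, and each library is called by its gate and replicate number. All 12 within-gate pairs differed by more than counting error (chi-square of at least 15.5 per degree of freedom), and each library counts as 1 sample.

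The cells carried the markers of the sorted cell type in both gates. Pax7 stood at 19.2, 15.8, 24.3 and 17.7 CPM in CD34Hi replicates 1 to 4 and at 17, 13.6, 35.7 and 18.9 CPM in CD34Lo replicates 1 to 4. The groups overlapped, and CD34Lo replicate 3 was the highest of all. Itga7, the α7-integrin used in the sort, ran from 79.6 to 90 CPM in CD34Hi and from 63.1 to 102 CPM in CD34Lo. Vcam1, Sdc4 and Calcr, further surface markers of satellite cells, also overlapped between the gates, with log2 fold changes (CD34Lo over CD34Hi) of -0.31 ± 0.13 (SE), -0.24 ± 0.14 and 0.18 ± 0.21 and adjusted p of 0.614, 0.802 and 0.962 in edgeR. The myofibre genes Ckm, Myh4 and Pvalb stood at 0.789 CPM or less in all 8 libraries. Acta1, a myofibre marker of the same set, went the other way, at 0.849 to 2.84 CPM in CD34Hi and 18.3 to 103 CPM in CD34Lo.

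Cd34 RNA, the product of the gene that defined the gates (chromosome 1, 194938819 to 194961279, mm10), was at 42.7, 69.8, 76.1 and 78.1 CPM in CD34Hi and at 40, 36.8, 38.3 and 31.8 CPM in CD34Lo. Every CD34Lo library lay below every CD34Hi library, although CD34Hi replicate 1 lay only just above. The difference of -0.86 ± 0.19 (log2, SE) did not pass the threshold with all 8 libraries (adjusted p = 0.1) and passed it without CD34Hi replicate 1 (log2 fold change -1.02, adjusted p = 0.0204) and in DESeq2 (adjusted p = 0.00275), with a range of 0.00275 to 1 over all alternatives. The gates were set on surface protein, and the labels give no width for them.

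RNA of other cell types was present in small and uneven amounts. The sums of the fibroblast and endothelial lists were highest in CD34Lo replicates 2 and 3, though not every member followed. Kdr of endothelium stood at 0 and 0.14 CPM there, against 1.5 CPM in CD34Hi replicate 1. Pdgfra of fibro-adipogenic cells stood at 3.8 and 0.495 CPM there, against 3.3 CPM in CD34Lo replicate 4. The sum of the immune list was highest in CD34Lo replicate 1, but not through its best known members. Cd68 was at 1.96 CPM in that library, the lowest of all 8, and Tyrobp at 0. Fabp4, a fatty acid carrier of capillary endothelium and fat, stood at 9.51, 0.0789, 1.06 and 0.243 CPM in CD34Hi and at 1.88, 199, 92.2 and 2.07 CPM in CD34Lo. Mfap5, a matrix protein of fibroblasts, stood at 3.22, 47.4, 38.9 and 0.189 CPM in CD34Lo, against 7.89 CPM or less in CD34Hi. Dcn (decorin) was highest in the same libraries, at 281 and 297 CPM, while CD34Lo replicate 4 was the lowest of all at 2.45 CPM. Genes of antigens that the sort excluded were also present. Ly6a, the gene of Sca-1, stood at 5.01, 0, 0 and 0 CPM in CD34Hi and 0.628, 69.7, 20.2 and 0 CPM in CD34Lo. Pecam1, the gene of CD31, stood at 1.22 CPM or less in CD34Hi and 0.24, 7.92, 2.05 and 0.94 CPM in CD34Lo. Of the whole lists, the 24 endothelial markers summed to 76.3 to 120 CPM in CD34Hi and 39.1 to 365 CPM in CD34Lo. Most of the CD34Hi sum was Tek, at 72.3, 88.2, 109 and 67.3 CPM, against 57.7, 40.3, 72.5 and 31 CPM in CD34Lo. Pecam1, Cdh5, Kdr and Tie1 stood at 1.5 CPM or less in CD34Hi. The 32 fibroblast and fibro-adipogenic markers summed to 1119 to 1327 and 1199 to 2128 CPM, the 29 immune markers to 5.84 to 11.9 and 11 to 98.4 CPM, and the 20 Schwann and neural markers to 191 to 222 and 219 to 269 CPM. The 12 tenocyte markers summed to 13 CPM or less and the 9 red blood cell markers to 0.778 CPM or less. Laptm5, Tnmd and Hba-a1, defining markers of leukocytes, tendon and red cells, had 0 counts in all 8 libraries, Ptprc had at most 1 count, and Sox10 of Schwann cells had counts in CD34Lo replicate 1 alone. Few members of these lists reached the level for a test. In edgeR 0 of 23 fibroblast, 0 of 7 endothelial, 0 of 8 Schwann, 0 of 3 immune and 0 of 3 tenocyte genes passed, with 7, 1, 1, 0 and 0 higher and 0, 1, 0, 0 and 1 lower at an unadjusted p under 0.05. Of all genes tested, 4.19% were higher and 3.01% lower at that level. DESeq2 called 1 fibroblast gene and 0 of the others. The part of this RNA in the differences below was not tested, beyond leaving out those libraries. Fewer cells of a type and less RNA per cell cannot be told apart in bulk samples.

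**Figure D1:**
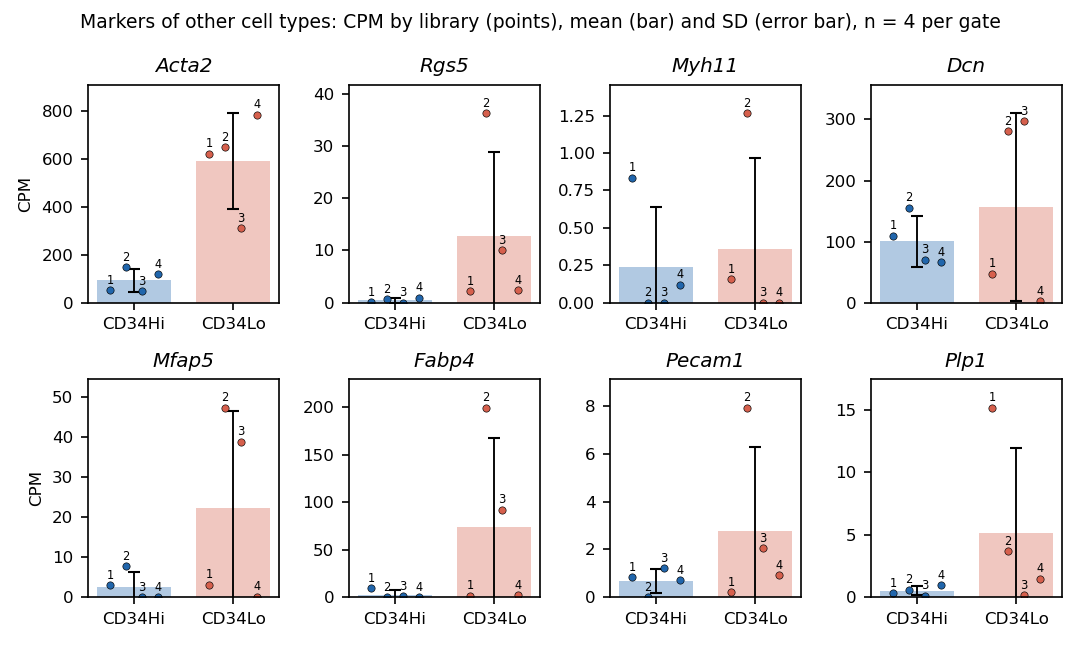
CPM of 8 genes that mark other cell types (vertical axes, linear from 0) in the 4 CD34Hi and 4 CD34Lo libraries; points are libraries numbered by replicate, bars are means and error bars are SD. Fabp4, Mfap5, Dcn and Rgs5 are high in CD34Lo replicates 2 and 3, while Acta2 is above every CD34Hi library in all 4 CD34Lo libraries.

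With the 8 libraries fitted alone, 27 genes rose in CD34Lo (0.238% of 11366 tested) and 9 fell (0.0792%) at an adjusted p under 0.05 in edgeR's quasi-likelihood test. At an unadjusted p under 0.05 there were 476 genes higher (4.19%) and 342 lower (3.01%). In 326 genes (2.87%) every CD34Lo library lay above every CD34Hi library, and in 210 (1.85%) below. All 36 called genes belonged to these. List members named below although they missed the threshold were mostly chosen after their values were seen. The median log2 fold change of all genes tested was 0.0024. The genes that rose included Myog, Actc1 and Acta1, and the largest falls were those of Calcrl, Cyb5a, Gal and Mgarp. The number of calls depended on single libraries. It was 19 without CD34Hi replicate 1, 23 without replicate 2, 22 without replicate 3 and 23 without replicate 4 of that gate, 23 without CD34Lo replicate 1 and 18 without CD34Lo replicate 4. Of the 36 genes, 15 passed whichever library was left out, and the other 21 lost the threshold in at least 1 omission without any change of sign. The 15 were Myog, Actc1, Acta1, Acta2, Cdkn1c, Mycl, Pkia, Arpp21, Fndc5, Dapk2, St8sia5, Iffo1 and Cd24a, which rose, and Gal and Calcrl, which fell. Without CD34Lo replicates 2 and 3, the libraries with the most fibroblast and endothelial marker RNA, 21 genes rose and 6 fell, and 20 of the 36 stayed called. That fit keeps CD34Lo replicate 1, in which the immune list summed to 98.4 CPM without high Cd68, Tyrobp or Ptprc.

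**Figure D2:**
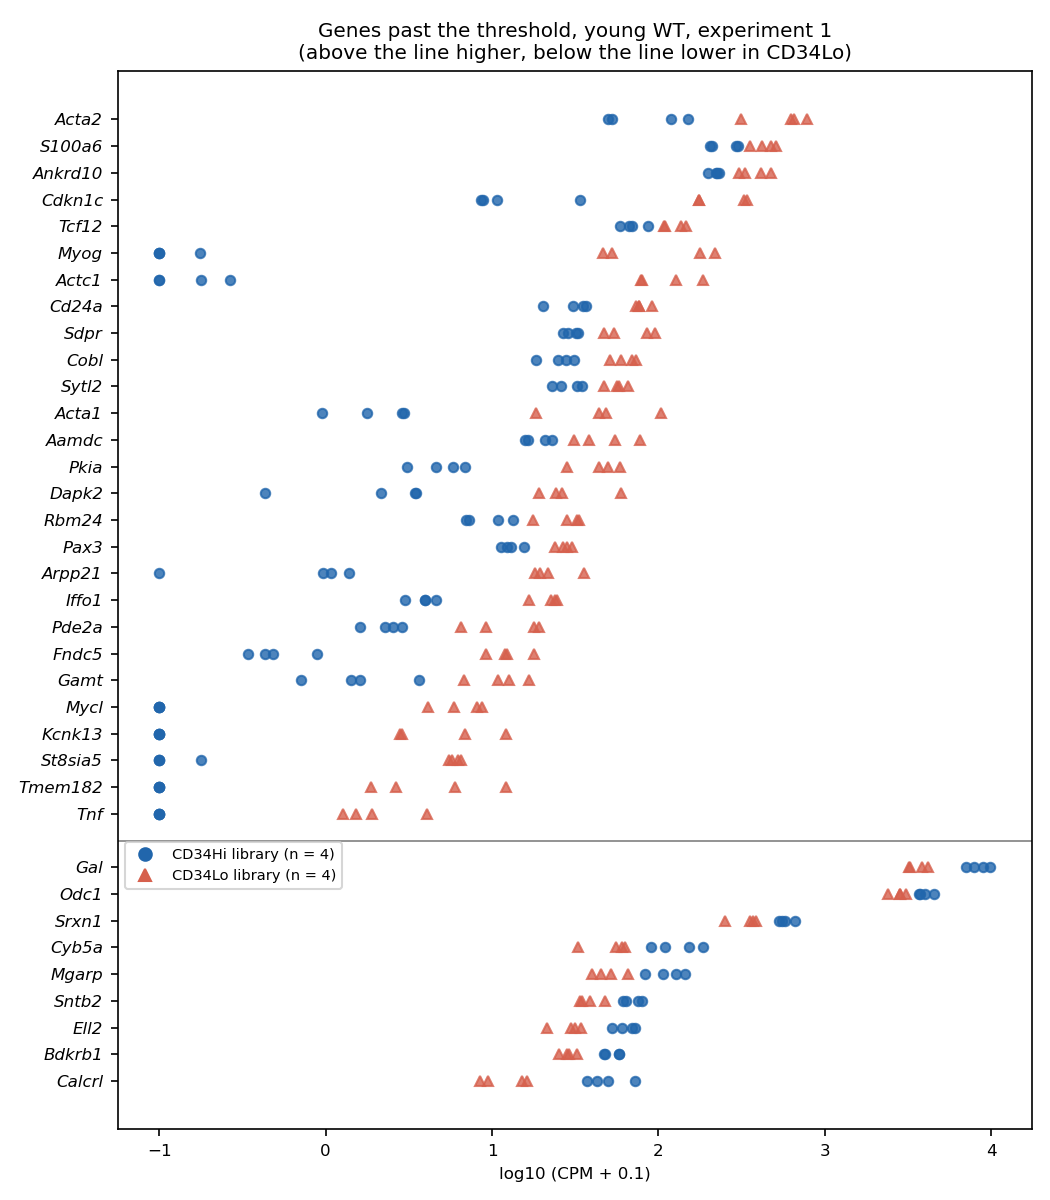
Each row is 1 of the 36 genes past the threshold and each point is 1 library (horizontal axis log10 of CPM plus 0.1, so that genes with 0 counts sit at -1). In every row the 4 CD34Lo libraries and the 4 CD34Hi libraries do not overlap.

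**Figure D3:**
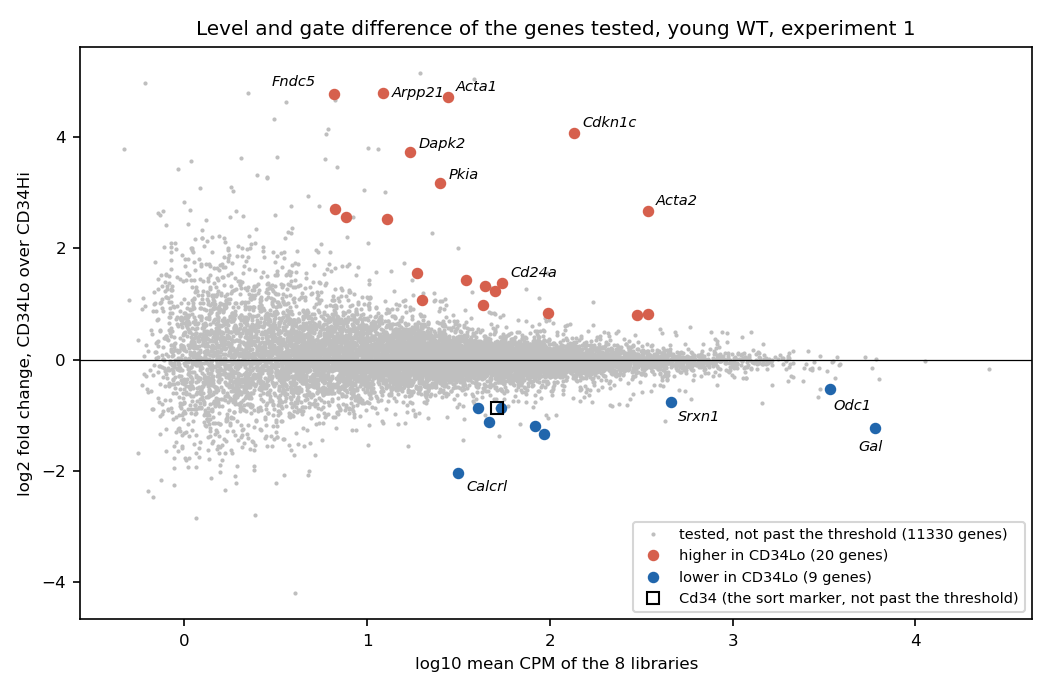
Mean CPM of the 8 libraries (horizontal, log10) against the log2 fold change of CD34Lo over CD34Hi (vertical) for 11359 genes. The 7 called genes with 2 or fewer counts in CD34Hi are left out because their fold changes rest on so few counts. Of the 29 called genes drawn, those that fell lie at moderate to high levels with small differences, and Cd34 lies among them without passing the threshold.

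The regulators of myogenesis differed in 1 respect above all, the presence of Myog. Myog, the transcription factor of commitment and differentiation (chromosome 1, 134289989 to 134292548, mm10), had 0, 0, 1 and 0 counts in the CD34Hi libraries and 667, 2802, 652 and 2328 counts in the CD34Lo libraries, or 52.4, 177, 46.1 and 219 CPM. All CD34Lo libraries thus held it and CD34Hi had a single read, and CD34Lo replicates 2 and 4 lay above replicates 1 and 3. Scaled to total counts, the ratio was 4849 (95% interval 870 to 191565, counting error only; adjusted p = 3.56e-05 in edgeR). The earlier regulators overlapped between the gates. Myod1 stood at 1010, 1080, 746 and 1270 CPM in CD34Hi and 1200, 1130, 903 and 1210 CPM in CD34Lo (log2 fold change 0.11 ± 0.15, SE, adjusted p = 0.971). Myf5 stood at 611, 496, 415 and 382 against 499, 241, 405 and 459 CPM (-0.25 ± 0.20, adjusted p = 0.913). Both sets overlapped, and the Myf5 value of CD34Lo replicate 2 was the lowest. Myf6, a late regulator, was at 6.03 CPM or less in all libraries, and Mef2c, a partner of Myog, did not reach the level needed for a test.

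The promoter of Myog is shown here with those of 3 actin genes that rose with it, as examples of the muscle genes that were called. Each is 300 bases of the RefSeq table on GRCm38.p6 (the sequence of mm10), from 250 bases before the transcription start to 50 after, written 5′ to 3′ on the gene's strand. Capitals mark E-boxes (CANNTG, the site bound by myogenic basic helix-loop-helix factors) and the CArG box (the site of serum response factor). The CArG pattern was CCWWWWWWGG, with W standing for A or T. Exact matches were searched on both strands, with no overlap between the 2 motifs.
Myog, chr1:134289754-134290053, plus strand: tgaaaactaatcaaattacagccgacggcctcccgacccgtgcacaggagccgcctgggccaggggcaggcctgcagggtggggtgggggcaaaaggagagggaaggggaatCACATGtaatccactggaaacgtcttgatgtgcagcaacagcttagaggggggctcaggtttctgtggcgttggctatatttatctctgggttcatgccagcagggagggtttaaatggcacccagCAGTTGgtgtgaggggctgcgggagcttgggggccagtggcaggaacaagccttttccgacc
Actc1, chr2:114052826-114053125, minus strand: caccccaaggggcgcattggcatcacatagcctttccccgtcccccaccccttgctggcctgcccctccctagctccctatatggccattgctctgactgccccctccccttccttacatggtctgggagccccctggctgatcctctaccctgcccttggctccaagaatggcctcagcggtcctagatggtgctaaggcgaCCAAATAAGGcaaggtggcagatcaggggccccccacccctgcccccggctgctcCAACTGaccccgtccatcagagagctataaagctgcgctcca
Acta1, chr8:123894726-123895025, minus strand: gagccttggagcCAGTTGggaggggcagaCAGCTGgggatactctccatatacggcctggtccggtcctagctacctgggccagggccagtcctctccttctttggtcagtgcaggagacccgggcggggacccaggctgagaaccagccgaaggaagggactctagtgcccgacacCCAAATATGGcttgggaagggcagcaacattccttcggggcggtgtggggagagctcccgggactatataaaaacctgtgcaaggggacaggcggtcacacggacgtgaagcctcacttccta
Acta2, chr19:34255324-34255623, minus strand: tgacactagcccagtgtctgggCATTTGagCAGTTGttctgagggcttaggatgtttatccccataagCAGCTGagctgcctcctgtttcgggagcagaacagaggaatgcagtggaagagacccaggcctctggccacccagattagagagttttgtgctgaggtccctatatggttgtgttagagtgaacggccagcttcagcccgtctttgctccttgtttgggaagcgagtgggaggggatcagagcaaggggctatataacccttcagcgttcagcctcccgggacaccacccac
The Myog window held 2 E-boxes, of which the nearer began 12 bases before the start. Actc1 held a CArG box 47 bases and Acta1 a CArG box 73 bases before the start, and no exact CArG match was found in the windows of Myog and Acta2. Sites that depart from the exact pattern were not searched, so their absence from these windows is not shown. Of the 27 genes that rose, 20 had a promoter in the table, 17 of them with an E-box and 2 with a CArG box (Acta1 and Actc1). Of the 9 that fell, 6 had one, 3 with an E-box and 0 with a CArG box. Among all 32544 promoters of this length, 72.3% held an E-box and 1.64% a CArG box. A called gene was counted if any of its promoters matched, whereas these shares are of single promoter sequences, so the measures are unlike. These matches describe letters, not binding. The RefSeq windows follow another transcript start than the gene spans printed for Actc1 and Acta2, so that the Actc1 window lies inside the span and the Acta2 window mostly inside.

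Of 30 measured myogenic regulators, 3 rose and 0 fell, with a list median of 0.23 (log2) against 0.0024 over all genes tested. Besides Myog they were Tcf12, which encodes the E protein HEB that pairs with Myod1 and Myog, and Rbm24, a splicing regulator of muscle. Tcf12 stood at 58.8, 69.5, 67 and 86.5 CPM in CD34Hi and 108, 147, 110 and 137 CPM in CD34Lo (log2 fold change 0.84 ± 0.16, SE, adjusted p = 0.0471). Rbm24 stood at 7.18, 10.8, 6.92 and 13.2 CPM against 32.5, 28.2, 17.5 and 33.4 CPM (1.55 ± 0.28, adjusted p = 0.0471). Neither pair of groups overlapped, though the 2 calls were lost in 7 and 6 of 8 omissions. Among the members that did not pass, Six4, a homeobox partner of Myod1 in muscle development, was at 10.6 to 15.2 CPM in CD34Hi and 17.3 to 34 CPM in CD34Lo (adjusted p = 0.0689), and Id3, an inhibitor of the E proteins, at 408 to 517 and 340 to 377 CPM (adjusted p = 0.241). Pax3, the relative of Pax7, was called as well and is named here after its values were seen. It stood at 12.9, 12.2, 15.4 and 11.3 CPM in CD34Hi and at 28.1, 30, 26.8 and 23.9 CPM in CD34Lo (1.07 ± 0.20, adjusted p = 0.0471), but lost the threshold in all 8 omissions.

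Of 37 measured genes of fusion and the muscle membrane, 2 rose and 0 fell (list median 0.14). Tmem182, a membrane protein of muscle linked to fusion, had 0 counts in all CD34Hi libraries and 5.89, 12.1, 1.77 and 2.55 CPM in CD34Lo, at least 79.7-fold higher against a floor of 3 counts over the gate (adjusted p = 0.0217). Fndc5, the precursor of the secreted peptide irisin, stood at 0.334, 0.789, 0.38 and 0.243 CPM in CD34Hi and 9.11, 12.2, 17.8 and 11.9 CPM in CD34Lo (27.3-fold, log2 4.77 ± 0.47 SE, adjusted p = 0.000295). For both, the whole CD34Lo group lay above CD34Hi. Tmem8c, which encodes the fusogen myomaker, stood at 0, 0, 0 and 4.61 CPM against 16.1, 33, 27.7 and 74.5 CPM. Its groups did not overlap, and CD34Hi replicate 4 was the only library of its gate with any. The difference missed the threshold in edgeR (log2 fold change 5.15 ± 1.00, SE, adjusted p = 0.0562) and by more in DESeq2 (adjusted p = 0.407). Among acetylcholine receptor and synapse genes, 0 of 11 passed in edgeR, while 2 were higher and 0 lower at an unadjusted p under 0.05, and DESeq2 called 1. Of all genes tested, 4.19% were higher and 3.01% lower at that unadjusted p. Chrna1, the α subunit of the muscle receptor, was at 38.4, 51.8, 35.4 and 71 CPM in CD34Hi and 127, 201, 66.1 and 186 CPM in CD34Lo (1.56 ± 0.31, adjusted p = 0.0586). Its groups overlapped, since CD34Lo replicate 3 lay below CD34Hi replicate 4.

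The α-actins, the thin filament proteins that differentiating muscle makes in sequence, were among the largest differences. Actc1, cardiac actin, the form of embryonic and newly formed muscle (chromosome 2, 114047282 to 114053548), stood at 0.167, 0.0789, 0 and 0 CPM in CD34Hi and 78.5, 127, 80.2 and 186 CPM in CD34Lo. With 2 counts against 6108 the ratio was 2296 (95% interval 635 to 18967, counting error only; adjusted p = 2.78e-07 in edgeR). Acta1, the skeletal actin of mature fibres (chromosome 8, 123891769 to 123894751), stood at 2.84, 2.76, 1.67 and 0.849 CPM against 103, 48.3, 18.3 and 43.6 CPM (26.2-fold, log2 4.71 ± 0.51 SE, adjusted p = 0.000536). Acta2, the smooth muscle actin that young myoblasts also make (chromosome 19, 34241090 to 34255590), stood at 52.9, 150, 49.5 and 119 CPM against 624, 651, 313 and 787 CPM (6.37-fold, 2.67 ± 0.36, adjusted p = 0.00369). In all 3 the gates were apart. CD34Lo replicate 3 was the lowest or near the lowest of its gate each time, while replicate 4 led for Actc1 and Acta2 and replicate 1 for Acta1. The coding sequences of these paralogs are nearly alike and the treatment of shared reads is not given in the sources used here, so the split of reads among them is uncertain.

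Acta2 also marks pericytes and smooth muscle, and the list of those 18 markers summed to 701 to 802 CPM in CD34Hi and 1027 to 1398 CPM in CD34Lo. That sum includes Acta2 itself, at 49.5 to 150 CPM in CD34Hi and 313 to 787 CPM in CD34Lo. The higher sum is therefore no separate information on these cells. Of its 11 measured members, Acta2 alone rose and 0 fell. Rgs5, a pericyte marker, stood at 0.97 CPM or less in CD34Hi and at 2.2, 36.4, 10.1 and 2.45 CPM in CD34Lo (adjusted p = 0.0914). Acta2 stood at 624 and 787 CPM in CD34Lo replicates 1 and 4, where Rgs5 was low, and at 651 CPM in replicate 2, where Rgs5 was highest. Myh11, the smooth muscle myosin, stood at 1.27 CPM or less in every library, and Tagln at 27 to 60.4 CPM with its highest value in CD34Hi.

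Few other contractile genes followed. Of 31 measured genes of embryonic and early sarcomeres 2 rose (Actc1 and Acta2) and 0 fell, and of 17 of the mature myofibre 1 rose (Acta1) and 0 fell, with list medians of 0.11 and 0.24. The first median was 0.0082 without CD34Lo replicate 2 and the second 0.037 without CD34Lo replicate 4. Among members that missed the threshold, Klhl41, a sarcomere assembly protein, stood at 0.668 CPM or less in CD34Hi and at 2.12, 31.3, 1.49 and 16.5 CPM in CD34Lo (adjusted p = 0.0586). The giant sarcomere protein gene Ttn stood at 12.4 to 16.7 and 23.5 to 38.7 CPM (adjusted p = 0.0592). Both gates were apart in these genes as well. Des (desmin), Tpm4 and Actg1, which undifferentiated myoblasts also express, had differences of -0.03 ± 0.11, -0.09 ± 0.09 and -0.15 ± 0.09 (log2, SE). The later markers were scarce. Embryonic myosin Myh3 had at most 6 counts in any library, the receptor subunit Chrnd at most 16, and the embryonic troponin Tnnt2 had 131 counts in CD34Lo replicate 2, 28 in replicate 4 and 0 or 1 in the others. CD34Lo replicates 2 and 4, which were highest in Myog, were also highest in Actc1, Cdkn1c, Pkia, Klhl41, Tnnt2, Tmem8c and Chrna1, genes picked after their values were seen. Other muscle genes had another order, with Acta1 highest in replicate 1, Fndc5 in replicate 3 and Tmem182 in replicates 2 and 1.

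**Figure D4:**
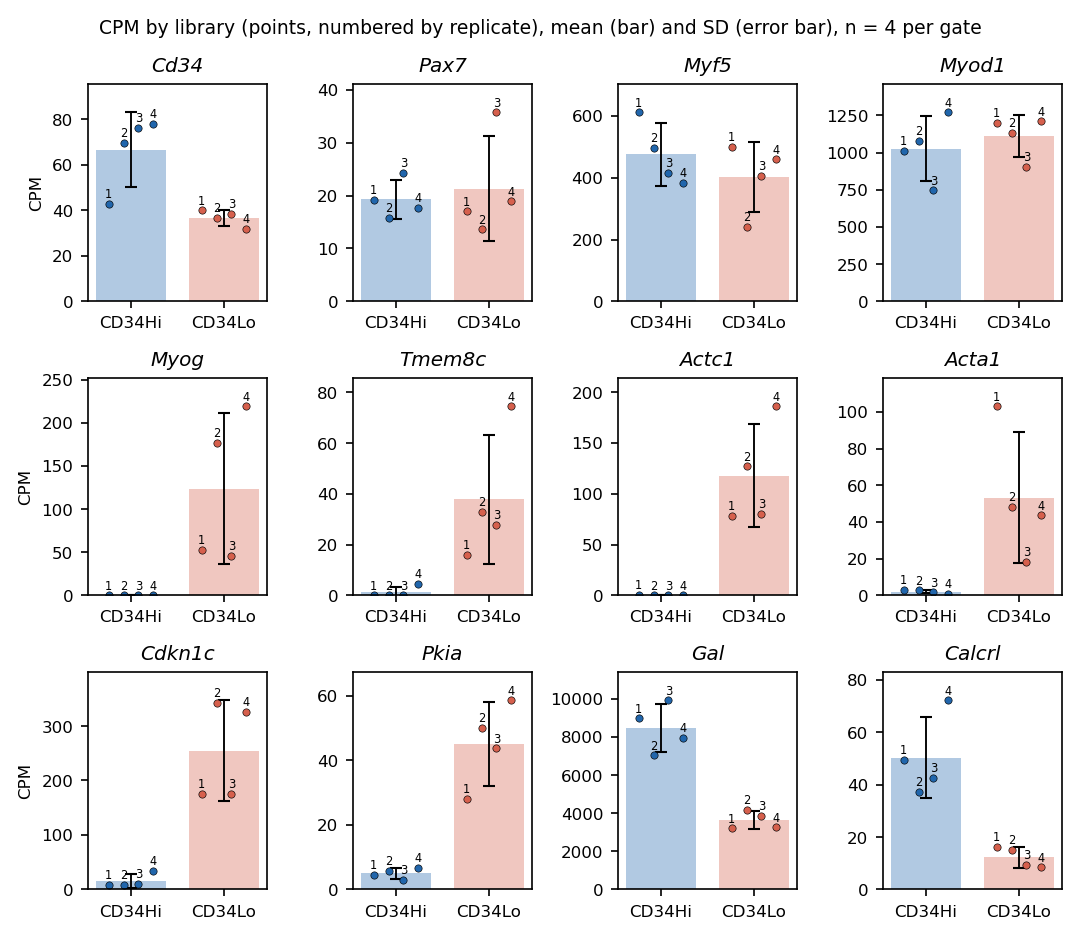
CPM of 12 genes (vertical axes, linear from 0) in the 4 CD34Hi and 4 CD34Lo libraries; points are libraries numbered by replicate, bars are means and error bars are SD. Pax7, Myf5 and Myod1 overlap between the gates, while Myog, Actc1, Acta1, Cdkn1c and Pkia are high and Gal and Calcrl low in all 4 CD34Lo libraries.

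Among 42 measured cell cycle genes 1 rose, the inhibitor Cdkn1c, and 0 fell. The list median was -0.15 with all libraries and 0.31 without CD34Hi replicate 4. In a fit of all libraries with a block on library number it was 0.0089, so its sign is not settled. Cdkn1c encodes the cyclin-dependent kinase inhibitor p57, which acts when myoblasts leave the cell cycle and stands also on the list of quiescence genes (chromosome 7, 143458339 to 143461050). It stood at 8.51, 8.76, 10.6 and 33.6 CPM in CD34Hi and at 175, 343, 175 and 326 CPM in CD34Lo (16.7-fold, log2 4.06 ± 0.43 SE, adjusted p = 0.000463). The gates were far apart, and CD34Hi replicate 4 stood above the rest of its gate. The related inhibitors Cdkn1a (106 to 172 and 134 to 188 CPM, adjusted p = 0.807) and Cdkn1b (log2 fold change -0.08) did not pass. Proliferation genes were low and uneven. Mki67 stood at 0, 4.18, 0.0761 and 34.1 CPM in CD34Hi and at 0, 13, 0.354 and 2.83 CPM in CD34Lo. Top2a stood at 1.67, 3.47, 1.45 and 61 CPM against 4.24, 17.7, 1.06 and 7.45 CPM. CD34Hi replicate 4 was thus the highest in both, and the gates overlapped. Ccnd3, the D-type cyclin of differentiating muscle, was at 8.84 to 13.8 CPM in CD34Hi and 20.1 to 27.1 CPM in CD34Lo (adjusted p = 0.0636). Mycl, the L-Myc member of the Myc family of transcription factors, had 0 counts in CD34Hi and 8.01, 8.61, 5.8 and 4.05 CPM in CD34Lo, at least 91-fold higher (adjusted p = 0.00191).

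Genes of cyclic AMP signalling differed in both directions. Of 39 measured members 1 rose and 1 fell at the threshold, and 3 were higher and 7 lower at an unadjusted p under 0.05 (list median -0.02, and -0.10 to -0.0049 on leaving out 1 library). Of all genes tested, 4.19% were higher and 3.01% lower at that unadjusted p. The gene that rose was Pkia, which encodes a peptide inhibitor of the catalytic subunit of protein kinase A (chromosome 3, 7366669 to 7445366). Pkia stood at 4.51, 5.76, 2.97 and 6.79 CPM in CD34Hi and at 28, 50, 43.7 and 58.6 CPM in CD34Lo (9.04-fold, log2 3.18 ± 0.30 SE, adjusted p = 0.000266). The gene that fell was Calcrl, the calcitonin receptor-like receptor that with RAMP proteins senses adrenomedullin and CGRP (chromosome 2, 84330626 to 84425411). Calcrl stood at 49.4, 37.3, 42.6 and 72.2 CPM in CD34Hi and at 16.2, 15.1, 9.41 and 8.39 CPM in CD34Lo (4.08-fold lower, log2 -2.03 ± 0.27 SE, adjusted p = 0.00369). In both genes the groups were well separated. Its relative Calcr, the calcitonin receptor tied to satellite cell quiescence, did not pass (62.9 to 92.9 and 54.7 to 112 CPM). Among members short of the threshold, the cyclic AMP responsive gene Crem was at 157 to 188 and 102 to 127 CPM (-0.54 ± 0.12, adjusted p = 0.0914). The phosphodiesterase Pde4b was at 862 to 1130 and 596 to 741 CPM (-0.46 ± 0.11, adjusted p = 0.136), and Pde3b at 53.9 to 74.1 and 30.5 to 49.1 CPM (-0.71 ± 0.19, adjusted p = 0.231). These 3 were lower in every CD34Lo library. Outside the list, Arpp21, a phosphoprotein regulated by cyclic AMP in neurons, stood at 0, 0.868, 1.29 and 0.97 CPM in CD34Hi and 19.4, 35.8, 21.5 and 18.1 CPM in CD34Lo (27.6-fold, 4.79 ± 0.50, adjusted p = 0.000463). Pde2a, which breaks down cyclic AMP and cyclic GMP, stood at 1.52 to 2.76 and 6.44 to 19.2 CPM (5.89-fold, adjusted p = 0.0238).

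The other 8 genes that fell were expressed in every library and differed by less than 3-fold. Gal, which encodes the neuropeptide galanin (chromosome 19, 3409915 to 3414544), stood at 8970, 7030, 9920 and 7950 CPM in CD34Hi and at 3200, 4170, 3850 and 3260 CPM in CD34Lo. The lowest CD34Hi library was well above the highest CD34Lo library, a difference of -1.23 ± 0.12 (log2, SE, 2.34-fold lower, adjusted p = 0.000266). Bdkrb1, a bradykinin receptor, stood at 58.3, 47.7, 46.8 and 58.1 CPM against 32.4, 25.1, 29.1 and 28 CPM (-0.88 ± 0.16, adjusted p = 0.0471). Odc1, ornithine decarboxylase of polyamine synthesis, stood at 3740, 4030, 3670 and 4560 CPM against 3070, 2840, 2390 and 2830 CPM (-0.52 ± 0.10, adjusted p = 0.0471). Srxn1, sulfiredoxin, which restores oxidised peroxiredoxins, stood at 574, 667, 557 and 528 CPM against 356, 253, 387 and 370 CPM (-0.77 ± 0.13, adjusted p = 0.0316), and Cyb5a, cytochrome b5, at 89.8 to 185 and 32.8 to 62.8 CPM (-1.34 ± 0.24, adjusted p = 0.0414). Groups were apart in each. The transcription elongation factor gene Ell2 (-1.12 ± 0.18), the mitochondrial protein gene Mgarp (-1.19 ± 0.20) and Sntb2 (-0.87 ± 0.16), a syntrophin of the dystrophin complex, completed the set. Of these 8, only Gal kept its call in all 8 omissions.

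The remaining genes that rose came from several classes. Surface and membrane genes were among them. Cd24a, a glycoprotein anchored in the outer membrane, stood at 35.1, 20.2, 36.7 and 30.8 CPM in CD34Hi and 92.1, 76.1, 73.6 and 76.3 CPM in CD34Lo (2.6-fold, log2 1.38 ± 0.19 SE, adjusted p = 0.00488). The potassium channel gene Kcnk13 had 0 counts in CD34Hi and 2.69 to 12 CPM in CD34Lo, at least 74.2-fold higher (adjusted p = 0.0105). St8sia5, a sialyltransferase, had 1 count in CD34Hi against 312, with 5.65, 5.38, 6.37 and 6.13 CPM in CD34Lo. Its ratio was 235 (95% interval 41.8 to 9296, counting error only; adjusted p = 0.000536), and the CD34Lo libraries were close together. The cytokine gene Tnf had 0 counts in CD34Hi and 1.18, 3.99, 1.42 and 1.79 CPM in CD34Lo, at least 29.3-fold higher (adjusted p = 0.0471), a call lost in all 8 omissions. Dapk2, a death-associated kinase, stood at 0.334 to 3.39 and 19.2 to 59.4 CPM (13.3-fold, adjusted p = 0.00369), and Iffo1, an intermediate filament family gene, at 2.89 to 4.5 and 16.6 to 24.5 CPM (5.79-fold, adjusted p = 0.000463). Gamt, which makes creatine, stood at 0.608 to 3.55 and 6.65 to 16.6 CPM (6.55-fold, adjusted p = 0.0471), and Aamdc at 15.7 to 23 and 31.2 to 77.2 CPM (2.68-fold, adjusted p = 0.0471). The last 5 calls are named after their values were seen. They were Cobl, an actin nucleator (2.48-fold), Sdpr, a caveolar coat protein (2.35-fold), Sytl2 of vesicle transport (1.96-fold), the calcium-binding protein gene S100a6 (1.76-fold) and Ankrd10 (1.74-fold).

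Of 49 measured genes of the quiescence list 1 rose (Cdkn1c) and 1 fell (Calcrl). At an unadjusted p under 0.05, 8 were higher and 8 lower, where 4.19% and 3.01% of all genes tested were. The list median was 0.06, and -0.032 to 0.14 on leaving out 1 library. Spry1, an inhibitor of FGF signalling, stood at 383, 502, 520 and 558 CPM in CD34Hi and 387, 273, 403 and 475 CPM in CD34Lo (-0.35 ± 0.16, adjusted p = 0.669). Chrdl2, a BMP antagonist, stood at 656, 673, 915 and 692 CPM against 474, 340, 577 and 409 CPM (-0.71 ± 0.16, adjusted p = 0.1). Its groups did not overlap, whereas those of Spry1 did. In the Notch pathway, whose signal keeps Pax7 cells undifferentiated, 0 of 30 measured members passed in edgeR or in DESeq2, with 2 higher and 1 lower at an unadjusted p under 0.05 (median -0.04, and -0.10 to 0.067 on leaving out 1 library). The receptors Notch1 (24.4 to 27.6 and 15.8 to 26.3 CPM) and Notch3 (11.9 to 17.7 and 7.98 to 16.2 CPM) and the targets Heyl (64 to 104 and 17.4 to 84.5 CPM) and Hey1 (11.9 to 44.3 and 16.2 to 23.5 CPM) all overlapped between the gates. Dll1, a Notch ligand, was at 1.67, 3.63, 3.04 and 1.21 CPM in CD34Hi and 12.7, 4.05, 6.58 and 8.2 CPM in CD34Lo (1.69 ± 0.49, adjusted p = 0.299).

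The FoxO factors that the series is about overlapped between the gates. Foxo1 stood at 38.1, 31.6, 34.5 and 39.1 CPM in CD34Hi and at 40.1, 23.4, 32.9 and 39.5 CPM in CD34Lo (-0.08 ± 0.20, adjusted p = 0.988). Foxo3 and Foxo4 stood at 1.34 CPM or less in every library and were not tested. Of 56 measured FoxO target genes 1 rose, Cdkn1c again, and 0 fell, while 10 were higher and 1 lower at an unadjusted p under 0.05 (median 0.11, and 0.020 without CD34Lo replicate 4). Of all genes tested, 4.19% were higher and 3.01% lower at that unadjusted p. The insulin receptor substrate gene Irs1, for example, stood at 23.9, 24.2, 25.6 and 17 CPM against 91.9, 37, 24.7 and 56.6 CPM (1.21 ± 0.33, adjusted p = 0.249). It overlapped between the gates through CD34Lo replicate 3. In the IGF, PI3K and Akt pathway 0 of 41 passed in edgeR, with 5 higher and 1 lower at an unadjusted p under 0.05, and DESeq2 called 1 higher and 1 lower (median 0.16, and 0.051 without CD34Lo replicate 3).

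Housekeeping, stress and matrix lists gave 0 calls in edgeR. At an unadjusted p under 0.05, 4.19% of all genes tested were higher and 3.01% lower. DESeq2 also called 0 of the genes of oxidative phosphorylation, ribosomal proteins and the interferon response, and called 2 higher of the stress list and 3 higher and 5 lower of the matrix list. Of 77 genes of oxidative phosphorylation 0 passed, 5 were higher and 0 lower at an unadjusted p under 0.05, and 70 had a positive fold change, with a median of 0.16, where 50.4% of all genes tested were positive. Without CD34Lo replicate 2 the median was 0.068, and without CD34Lo replicates 2 and 3 it was 0.086. Of 81 cytosolic ribosomal protein genes 0 passed and 0 had an unadjusted p under 0.05 (median -0.02, and -0.13 to 0.040 on leaving out 1 library). Of 52 immediate early and dissociation stress genes 0 passed, with 5 higher and 7 lower at an unadjusted p under 0.05 (median -0.09, and -0.16 to -0.058 on leaving out 1 library). Fos, the best known of them, stood at 537, 384, 442 and 209 CPM in CD34Hi and at 319, 278, 506 and 475 CPM in CD34Lo. Of 39 interferon and antigen presentation genes 0 passed, with 4 higher and 0 lower at an unadjusted p under 0.05 (median 0.13, and 0.090 to 0.26). Of 48 genes of the extracellular matrix and adhesion 0 passed, with 7 higher and 6 lower at an unadjusted p under 0.05 (median 0.07, and 0.030 to 0.14). Among the last, Thbs2 stood at 105 to 145 and 37.9 to 87.2 CPM (-0.99 ± 0.22, adjusted p = 0.103), while its relative Thbs1 stood at 0.608 to 4.26 and 6.3 to 20.6 CPM (2.56 ± 0.52, adjusted p = 0.0636). In both thrombospondins the gates were apart, in opposite directions.

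Young cells of experiment 2, with 4 libraries per gate, and of experiment 3, with 3 CD34Hi and 2 CD34Lo libraries, gave the same comparison in other libraries, of 5.18 M to 8.91 M and 38.26 M to 70.46 M counts. In experiment 2, 4 genes rose in CD34Lo (0.0332% of 12041) and 1 fell (0.0083%). Of the 27 genes that rose here, 25 were measured there, 23 had the same sign, 16 of them at an unadjusted p under 0.05 (2.38% of all genes were higher at that level), and 2 were called, Myog and Actc1. Of the 9 that fell, 8 had the same sign, all 8 at an unadjusted p under 0.05 (2.58% of all genes were lower), and 0 were called in edgeR. The exceptions were Tnf, Sytl2 and Cyb5a. Cyb5a stood at 45.4, 46.5, 41.7 and 266 CPM in CD34Lo against 66.5 to 110 CPM in CD34Hi, so that replicate 4 alone lay above. Without that library 12 of the 36 genes were called in experiment 2. In experiment 3, 14 genes rose (0.101% of 13929) and 18 fell (0.129%). Of the 27, 25 had the same sign, 15 at an unadjusted p under 0.05 (2.97% of all genes), and 6 were called, Myog, Actc1, Acta1, Cdkn1c, Mycl and Rbm24. Of the 9, all had the same sign, 8 at an unadjusted p under 0.05 (5.48% of all genes), and Gal was called. The 2 of opposite sign were Sdpr and Sytl2. The labels do not number the columns of experiment 3, which are numbered here in column order within a gate. Without its first CD34Hi column the 7 calls there became 0, and without its first CD34Lo column 3.

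Values of single genes follow. Myog stood at 98.7, 95.9, 80.2 and 103 CPM in CD34Lo and at 1.31 CPM or less in CD34Hi of experiment 2, and at 92.6 and 35.2 CPM against 2.41 CPM or less in experiment 3. Calcrl differed by -2.06 ± 0.45 (log2, SE) in experiment 2 and -1.48 ± 0.36 in experiment 3, and Gal by -1.18 ± 0.44 and -1.28 ± 0.15. Gal in CD34Lo replicate 4 of experiment 2 was again out of line with its gate, at 4050 CPM against 1060 to 1230 CPM. That library stood apart in other genes as well, with Fabp4 at 2060 CPM against 90.6 to 235 CPM in the rest of its gate. Dcn was at 2740 CPM there against 620 to 781 CPM, and S100a6 at 1640 CPM against 253 to 312 CPM. Pkia was higher in CD34Hi of the other experiments, at 10.9 to 37.9 and 10.6 to 23.4 CPM, and its differences there were 0.62 ± 0.43 and 0.59 ± 0.33 (log2, SE). Cd34 differed more there, by -1.36 ± 0.20 (adjusted p = 0.0648) and -1.95 ± 0.27 (adjusted p = 0.0145). Tmem8c, short of the threshold here, was called in both, with 13.9 to 31 CPM and 10.7 and 13.7 CPM in CD34Lo and 0.106 CPM or less in CD34Hi.

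**Figure D5:**
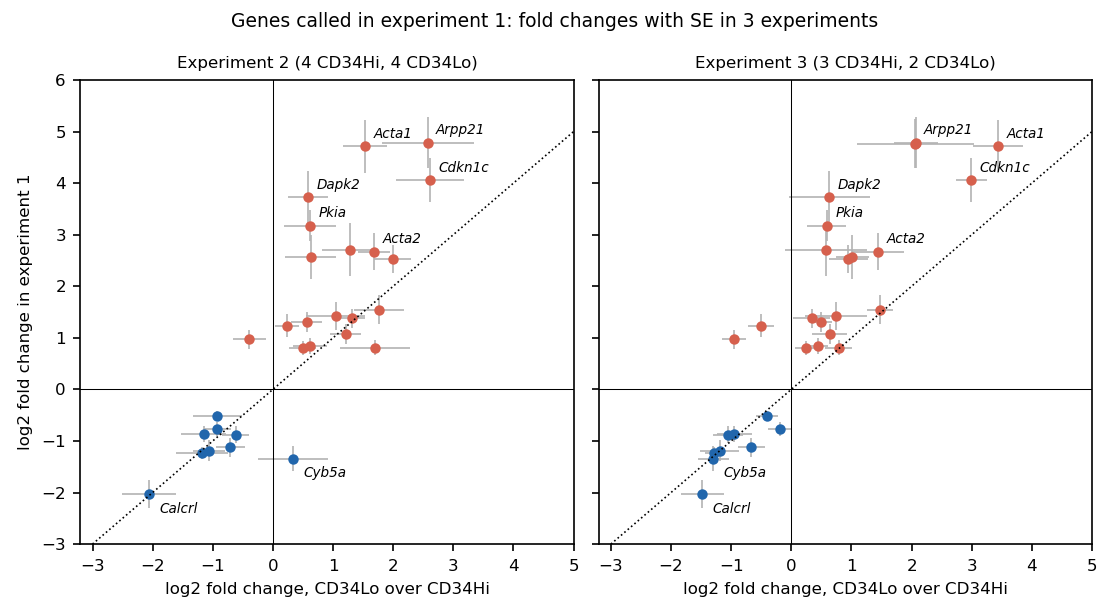
Log2 fold changes of the called genes in experiment 1 (vertical) against those in experiment 2 (left, 28 genes) and experiment 3 (right, 29 genes), with SE bars and the line of equal change dotted. Genes with 2 or fewer counts in CD34Hi of experiment 1 are left out; most points lie in the quadrants of equal sign, and the genes that rose most in experiment 1, such as Acta1, Arpp21 and Cdkn1c, lie above the line.

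Whether the gate difference itself differed between experiments was tested by an interaction term. With experiment 2, edgeR called 0 of 12819 genes (0%), 560 had an unadjusted p under 0.05 (4.37%), and DESeq2 called 26. The lowest adjusted p was 0.0645, shared by Tnf and Actc1. The term for Pkia was 2.59 ± 0.56 (log2 difference of experiment 1 minus that of experiment 2, SE, adjusted p = 0.393). With the geriatric libraries of the same experiment, edgeR called 0 of 12163 genes (0%), 465 had an unadjusted p under 0.05 (3.82%), DESeq2 called 10, and the lowest adjusted p was 0.144. Geriatric libraries varied widely. Myog stood at 0.11, 52.4, 10.6 and 0.124 CPM in geriatric CD34Lo and at 0.312 CPM or less in geriatric CD34Hi, and Cdkn1c at 50.7, 262, 61.9 and 36 CPM against 57.7, 9.71, 20.7 and 6.46 CPM. Both overlapped between the geriatric gates through CD34Lo replicates 1 and 4. Pkia stood at 55.6, 37.7, 19.4 and 12.4 CPM against 33.9, 20.4, 23.8 and 10.8 CPM (interaction adjusted p = 0.871), and Calcrl at 2.85, 19.2, 7.31 and 45.8 CPM against 60.5, 34.2, 66.4 and 74 CPM. A p that misses the threshold does not show that the difference was equal.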

How the data were processed

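RNA was sequenced from 8 libraries of sorted muscle stem cells, 4 CD34Hi and 4 CD34Lo, of young WT mice. The submitters' processing notes name the mouse build mm10 and, in no stated order, HTSeq, Partek 7.0, TopHat2 2.1.1, Trim Galore and bcl2fastq 2.17.1. The deposited values are raw counts per gene, not normalized. Libraries were made with a SMART-Seq v4 and Nextera XT protocol per the labels' protocols, which keeps no strand, so overlapping and antisense genes cannot be told apart. The treatment of reads shared by paralogs is not given in the sources used here.

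The table lists 24421 genes. Tests used edgeR 4.0.16 (R 4.3.3): low counts were removed with filterByExpr (minimum count 10, minimum total 15), scaled by TMM and tested by the quasi-likelihood F-test, with Benjamini-Hochberg adjustment over all genes tested and a threshold of 0.05. Every adjusted p is from this test unless DESeq2 (1.42.0) is named. Each SE was derived from it, as the size of the log2 fold change divided by the square root of the F statistic. CPM are counts relative to the scaled library total. With 0 counts in a gate, a fold is a lower bound against 3 counts over the gate, and intervals (95%, exact) cover counting error only. Interaction terms compared the gate difference with experiment 2 and with geriatric libraries. Experiment 4 was not analysed here, because the gate names of its table differ from the labels. Samples were grouped by their titles.

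Named genes were the called genes, up to 20 largest differences each way, called members of 23 gene lists, up to 4 most abundant members of each list, genes called only with a block on library number, and a set of satellite cell and regulator genes. The members and lists were chosen with earlier results of these data known. Alternatives were DESeq2, its size factors, no filter, a block on library number, a fit with all 16 libraries of experiment 1, and leaving out libraries. The scripts were tested on simulated data. Promoters came from RefSeq (GRCm38.p6) and positions from the mm10 annotation. Figures were drawn with matplotlib 3.10.9.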

Additional observations from a re-analysis of the deposited data

Results flagged for a closer look

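In 67 genes and 134 groups of 4 libraries, 7 groups (5.22%) held a library whose gap to the next, over the range of the group, passed Dixon's 95% critical value; chance flags about 1 in 20 groups. CD34Hi replicate 4 stood apart in Cdkn1c, at 33.6 CPM against 8.51 to 10.6 CPM in the rest of its gate, and in Tmem8c, at 4.61 CPM against 0. The same library held the highest Mki67 and Top2a. CD34Lo replicate 1 stood apart in Cd24a, at 92.1 CPM against 73.6 to 76.3 CPM, and CD34Hi replicate 3 in Chrdl2, at 915 CPM against 656 to 692 CPM. Frmd4b, chosen because it was called only with a block on library number, stood at 3.24 CPM in CD34Hi replicate 2 against 0.152 to 0.485 CPM. Mef2c stood at 3.84 CPM in CD34Hi replicate 1 against 0 in its gate, and at 1.57 CPM in CD34Lo replicate 1 against 0 to 0.0943 CPM.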

How the results depend on the processing

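The 36 calls (27 higher, 9 lower) became 133 in DESeq2 (84 and 49) and 62 without a filter (45 and 17), both with all 36 among them. With DESeq2's size factors they were 27 and 9 again. With all 16 libraries of the experiment in 1 fit they were 3 (3 and 0). Leaving out 1 library gave 18 to 35 calls, 15 to 29 higher and 2 to 6 lower. A replicate block on library number gave 33 higher and 18 lower, with 28 of the 36 among them; of genes short of the threshold without it, Tmem8c (adjusted p = 0.0106), Chrna1 (0.00849), Capn6 (0.0195) and Thbs1 (0.0169) passed with it, and Chrna1 and Thbs1 also passed in DESeq2. The deviations of same-numbered libraries correlated at -0.02 to 0.20, over 0.1 in 2 of 4 pairs, and 4 of 8 libraries correlated best with their own number. The labels do not say what same-numbered libraries share, and these mixed correlations cannot settle it.

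The 0 interaction calls with experiment 2 became 26 in DESeq2, 2 without a filter and 2 with the replicate block, and 0 to 3 on leaving out 1 library; the 0 with the geriatric libraries became 10 in DESeq2 and 0 to 1. The 2 calls shared with experiment 2 became 24 in DESeq2, 4 without a filter, 4 with the replicate block and 1 to 12 on leaving out 1 library. The 7 shared with experiment 3 became 38, 31, 8 and 0 to 10. Small differences of uncalled genes changed sign, and the cause was not tested. Fos was -0.00355 with all 16 libraries; on leaving out 1 library it ran from -0.21 to 0.19, Foxo1 from -0.16 to 0.065, Itga7 from -0.068 to 0.14, Myod1 from -0.016 to 0.23 and Pax7 from -0.22 to 0.30. Without CD34Lo replicates 2 and 3, chosen after seeing the data, Foxo1 was 0.16, Myf5 0.012, Myf6 0.16 and Pax7 -0.10. The comparison with experiment 4 was not run. With 4 libraries a gate, and depths of 6.27 M to 16.11 M counts, genes at a few counts in CD34Hi have wide ratios.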

Other observations

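Calcrl, the receptor that fell in CD34Lo, binds adrenomedullin with the partner Ramp2 and CGRP with the partner Ramp1; these were looked up after its values were seen. Adm, the ligand, stood at 18.7, 16.7, 48.4 and 26.3 CPM in CD34Hi and at 39.7, 46.5, 99.2 and 83.7 CPM in CD34Lo (log2 fold change 1.28 ± 0.35, SE, adjusted p = 0.265 in edgeR). The gates overlapped, with replicate 3 the highest of each. Ramp2 stood at 31.6 to 44.6 CPM in CD34Hi and 29.4 to 42.5 CPM in CD34Lo, and Ramp1 at 0.167 CPM or less and 0.848 to 1.63 CPM (adjusted p = 0.104).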
